A study of Mus musculus with 6 samples.

Results

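Splicing of 6 genes was followed in activated mouse T cells: Ptprc, which encodes the phosphatase CD45, Cd44, Hnrnpll, Celf2, Map2k7 and Malt1. Their rows were taken from the gene and transcript count tables by Ensembl identifier without its version, which gave 6 of 52550 genes and 73 of 131146 transcripts. Splenic CD3+ T cells of young wild-type C57BL mice, male and female, were activated with antibodies to CD3 and CD28 through the T cell receptor (TCR), and RNA was sequenced after 24 h. Counts are the deposited whole numbers per feature, CPM are counts scaled to the library's total after TMM normalization, and FPKM are the deposited values scaled to length. The group TCR alone had 3 libraries without a compound, and the group TCR+DMGV had 3 libraries with DMGV (dimethylguanidino valeric acid) at 100 ng/ml, as the labels give it. The study's own text names another agent for this sequencing, LNY1, at that time and at the same 100 ng/ml. It identifies LNY1 as ADMA and SDMA, from which the enzyme AGXT2 makes DMGV. Which of them the cells received cannot be told from the sources used here. No unactivated T cells were analysed here, so the comparison is between activation with and without the compound and not between resting and activated cells.

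T cells change the splicing of many transcripts when they are activated. CD45 is the textbook case, because its exons 4, 5 and 6 (also called A, B and C) are skipped as cells move from the naive to the activated state. The RNA-binding protein hnRNP LL, encoded by Hnrnpll, binds CA-rich RNA and promotes that skipping. CELF2, encoded by Celf2, promotes skipping of a short exon of Map2k7, a kinase that activates JNK. CD44 binds hyaluronan, and its variable exons lengthen the part of the protein outside the cell. MALT1 is a paracaspase of the pathway from the TCR to NF-kappaB, and a short exon of it can be included after activation.

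The exons these genes are known for are shown first, since the shares below count transcripts that hold or lack them. Each sequence was read from the GENCODE M21 transcripts (GRCm38) and is written 5′ to 3′ on the strand of its gene, which is the minus strand for Ptprc and Cd44 and the plus strand for Map2k7. Capitals mark the letters CACA, a CA-rich run of the kind hnRNP LL binds, searched on the transcript strand only and with overlapping matches counted.
Ptprc exon 4 (A), chr1:138122456-138122584: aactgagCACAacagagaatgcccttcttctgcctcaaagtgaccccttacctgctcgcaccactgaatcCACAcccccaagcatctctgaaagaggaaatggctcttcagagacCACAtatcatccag
Ptprc exon 5 (B), chr1:138120020-138120166: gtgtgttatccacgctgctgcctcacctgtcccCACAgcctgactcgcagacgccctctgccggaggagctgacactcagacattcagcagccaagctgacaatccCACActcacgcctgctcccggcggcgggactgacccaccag
Ptprc exon 6 (C), chr1:138117754-138117894: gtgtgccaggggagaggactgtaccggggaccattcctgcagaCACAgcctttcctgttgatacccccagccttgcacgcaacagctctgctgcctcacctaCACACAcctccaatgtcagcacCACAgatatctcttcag
Ptprc exon 7, chr1:138116954-138117025: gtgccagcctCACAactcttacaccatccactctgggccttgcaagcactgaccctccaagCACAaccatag
Map2k7 48-base exon, chr8:4240688-4240735: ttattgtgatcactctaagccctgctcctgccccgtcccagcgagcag
Cd44 variable exon 10, the last of its 10 variable exons, chr2:102831330-102831536: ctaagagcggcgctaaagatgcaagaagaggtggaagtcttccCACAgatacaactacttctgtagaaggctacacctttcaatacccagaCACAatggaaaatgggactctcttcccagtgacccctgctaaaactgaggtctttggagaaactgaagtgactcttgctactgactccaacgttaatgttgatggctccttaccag

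Exon 4 of Ptprc held CACA 3 times, exon 5 held it 2 times, exon 6 held it 4 times and exon 7 held it 2 times. Among internal exons of protein-coding transcripts with the same length, CACA was present in 46.5% of those of 129 bases, 51.4% of those of 147 bases, 49.8% of those of 141 bases and 31.2% of those of 72 bases. At least as many matches as in exons 4, 5, 6 and 7 were present in 4.20%, 16.4%, 1.58% and 5.35% of the internal exons of their lengths. The Map2k7 exon held no CACA, where 19.2% of the 490 internal exons of 48 bases held it, and the last variable exon of Cd44 held it 2 times, where 64.6% of internal exons of 207 bases held at least 1 and 29.2% held at least 2. A match is a description of letters and not a binding site.

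The 6 libraries summed to between 37758725 and 43718867 counts, above the upper depth of 35000000 reads that the labels state. A count may therefore not be 1 read, and the cause was not tested. On the first principal component of log2 CPM, which took 32.2% of the variance, TCR alone replicate 3 and TCR+DMGV replicate 1 stood apart from the other 4 libraries, and results were also computed without both. All 10 T cell markers were detected, with summed levels of 2854 to 3177 CPM in TCR alone and 3079 to 3343 CPM in TCR+DMGV. Summed levels of 8 B cell markers were 10.6 to 13.6 CPM and 12.1 to 13.5 CPM, those of 10 myeloid markers were 11.3 to 16.0 CPM and 13.0 to 15.1 CPM with Cd14, S100a8 and S100a9 at 0, those of 5 NK cell markers were 54.3 to 64.4 CPM and 61.6 to 74.5 CPM, and those of 6 erythroid markers were 3.72 to 4.93 CPM and 1.75 to 3.72 CPM. Eomes, which activated CD8+ T cells also express, made up nearly all of the NK cell sum, at 58.0 ± 5.02 CPM and 65.6 ± 6.003 CPM (SD, n = 3 each), and the highest mean of the other 4 in either group was 0.981 CPM, of Klre1. The erythroid sums did not overlap between groups, and the part of any of these cells in the results was not tested.

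At the level of the whole gene, none of the 6 genes passed the test between the groups. In edgeR's quasi-likelihood test on gene counts, 0 of 6 passed an adjusted p of 0.05 and 0 had an unadjusted p under 0.05, with DESeq2 also 0 and 0, while 2 of 14786 genes tested passed (0.0135%). Their CPM overlapped between the groups for each of the 6, where 8.86% of all genes tested had groups that did not overlap. In bulk RNA, fewer cells of a kind and less RNA per cell cannot be told apart.

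**Figure D1:**
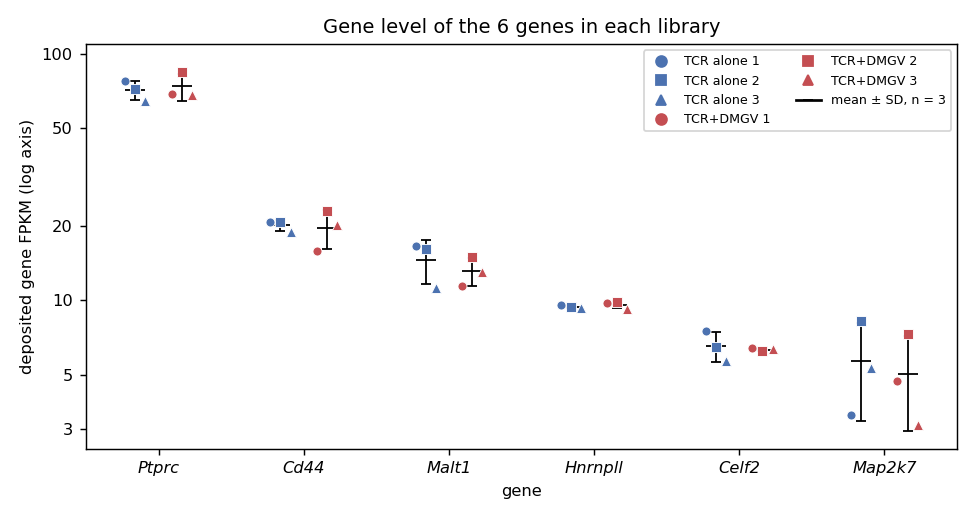
Deposited gene FPKM (log axis) of the 6 genes, ordered by mean level, with a point for each library (TCR alone in blue, TCR+DMGV in red, symbols for replicates 1 to 3) and the mean ± SD of each group. The groups overlap for every gene, and Map2k7 shows the widest spread, from 3.13 to 8.29 FPKM.

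Ptprc, the phosphatase that keeps the kinase Lck ready to signal, stood at 77.5, 72.2 and 64.6 FPKM in TCR alone and at 69.1, 84.5 and 68.2 FPKM in TCR+DMGV. Both the highest and the second lowest values were in TCR+DMGV, and the groups overlapped. The log2 fold change from the counts (TCR+DMGV over TCR alone, as for all below) was 0.07 with a standard error of 0.12 (edgeR adjusted p = 0.999).

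Cd44, the hyaluronan receptor, stood at 20.8, 20.8 and 18.9 FPKM in TCR alone and at 15.9, 23.1 and 20.3 FPKM in TCR+DMGV. TCR+DMGV held both the lowest and the highest library. Its log2 fold change was -0.01 with a standard error of 0.15 (edgeR adjusted p = 0.999).

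Hnrnpll had the tightest values, with 9.61, 9.37 and 9.34 FPKM in TCR alone and 9.74, 9.90 and 9.24 FPKM in TCR+DMGV. All 6 libraries lay within 1 FPKM of each other. Its log2 fold change was 0.04 with a standard error of 0.07 (edgeR adjusted p = 0.999).

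Celf2 stood at 7.49, 6.44 and 5.66 FPKM in TCR alone and at 6.39, 6.22 and 6.35 FPKM in TCR+DMGV. The 3 libraries with the compound lay inside the range of the 3 without it. Its log2 fold change was -0.03 with a standard error of 0.11 (edgeR adjusted p = 0.999).

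Map2k7 stood at 3.43, 8.29 and 5.32 FPKM in TCR alone and at 4.73, 7.31 and 3.13 FPKM in TCR+DMGV. Replicate 2 was the highest library of each group. Its log2 fold change was -0.16 with a standard error of 0.39 (edgeR adjusted p = 0.999), on 548 to 1487 counts per library, the lowest depth of the 6 genes.

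Malt1 stood at 16.6, 16.1 and 11.2 FPKM in TCR alone and at 11.5, 14.96 and 13.1 FPKM in TCR+DMGV. The lowest library of each group was a library that stood apart on the first component. Its log2 fold change was -0.14 with a standard error of 0.18 (edgeR adjusted p = 0.999). It was -0.30 without TCR alone replicate 3 (edgeR unadjusted p = 0.048, adjusted p = 0.649) and -0.03 without TCR+DMGV replicate 1.

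Ordered by mean FPKM over the 6 libraries, Ptprc was highest with 72.7, followed by Cd44 with 19.97, Malt1 with 13.9, Hnrnpll with 9.53, Celf2 with 6.43 and Map2k7 with 5.37. On these gene FPKM, Ptprc lay above Cd44, Malt1 above Hnrnpll and Hnrnpll above Celf2 in all 6 libraries. Cd44 overlapped Malt1, and Celf2 overlapped Map2k7. The order depends on the measure. In CPM, which are not scaled to length, Celf2 (161 to 216) lay above Hnrnpll (120 to 132) and Map2k7 (13.8 to 36.4). The deposited gene FPKM are also not sums of transcript FPKM. In TCR alone replicate 1, the Hnrnpll transcript ENSMUST00000184297.7 alone had 12.1 FPKM, against 9.61 for the gene.

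Transcripts are described by their share of the gene's counts. Of the 73 transcripts, 49 passed the filter on low counts for the test of level and 0 of them passed an adjusted p of 0.05 (3 had an unadjusted p under 0.05), with DESeq2 also 0 (5 unadjusted). No transcript passed among all 38401 tested with edgeR (0.0%), of which 1235 had an unadjusted p under 0.05, while DESeq2 called 387. In simulated data, changed transcripts were rarely recovered by the edgeR test at the fitted dispersion, so the lack of calls does not show that transcript levels were unchanged. The usage test asks whether a transcript's change departs from that of its gene. It called 1 of the 6 genes, Celf2, where 108 of 7788 genes passed (1.39%), and 1 of the 49 transcripts, where 137 of 31395 passed (0.436%). The 19 transcripts with a mean share of at least 5% were also compared by an exact two-sided permutation test over the 6 libraries, whose smallest p is 0.1 and which therefore cannot reach 0.05. Shares of 3 of the 19 did not overlap between groups, all 3 of Hnrnpll, where 9.05% of transcripts of that size in all genes did not overlap.

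The main Ptprc transcript, ENSMUST00000182283.7, lacks exons 4, 5 and 6 and encodes the short form known as CD45RO. Its share was 75.1%, 73.1% and 67.4% in TCR alone and 70.5%, 75.4% and 70.0% in TCR+DMGV. The groups overlapped, with means of 71.9% ± 3.98 and 71.9% ± 2.99 (SD, n = 3 each, exact permutation p = 1).

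The full form, ENSMUST00000183301.7, holds all of exons 4 to 7. Its share was 11.6%, 11.6% and 17.0% in TCR alone and 15.5%, 11.5% and 14.4% in TCR+DMGV. Both libraries that stood apart on the first component carried the highest share of their group, and the means were 13.4% ± 3.10 and 13.8% ± 2.08 (SD, n = 3 each, exact permutation p = 1).

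The form ENSMUST00000182755.7 lacks exon 7 as well as exons 4 to 6. It took 6.06%, 10.1% and 5.22% in TCR alone and 8.69%, 6.82% and 8.35% in TCR+DMGV. Both the highest and the lowest library were in TCR alone (exact permutation p = 0.7, n = 3 each). The remaining 10 Ptprc transcripts together held 5.12% to 10.4% of the counts.

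**Figure D2:**
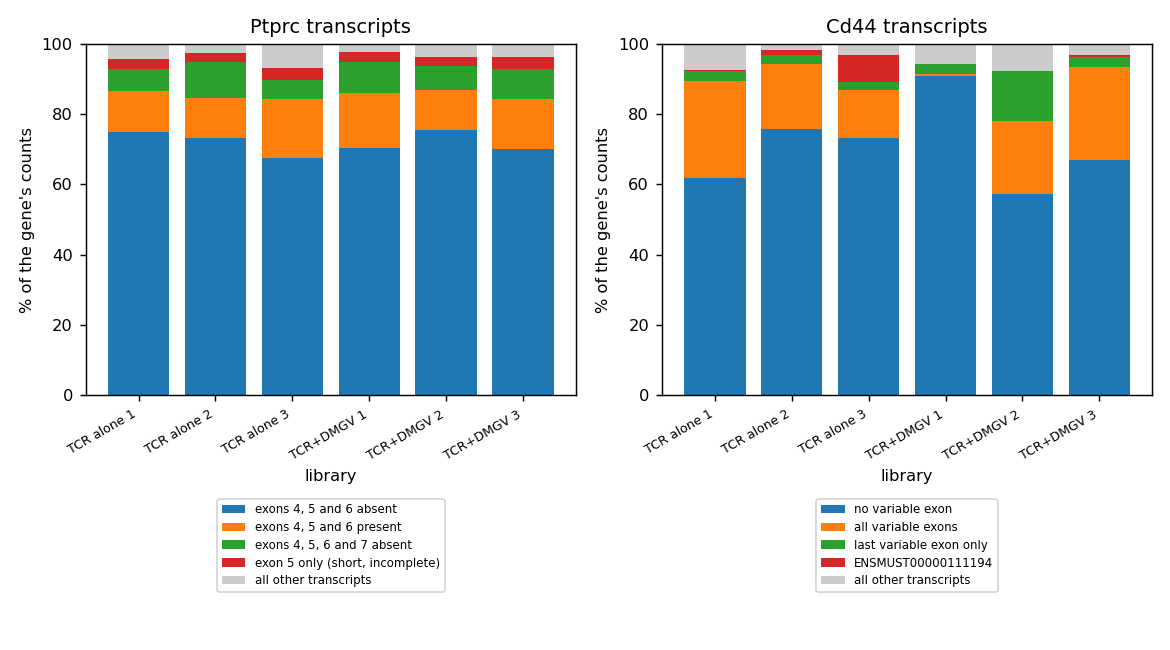
Stacked shares of each gene's counts (%) for Ptprc (left) and Cd44 (right) in the 6 libraries, with transcripts named by their alternative exons. The Ptprc form without exons 4 to 6 takes 67.4% to 75.4% in every library, while the Cd44 form with all variable exons is at 0.758% in TCR+DMGV replicate 1.

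Read by exon, inclusion is the count of transcripts that hold an exon as a share of those that hold or skip it. Exon 4 was included at 12.4%, 12.1% and 18.5% in TCR alone and at 16.2%, 12.1% and 15.2% in TCR+DMGV. The values for exon 6 were nearly the same, because 1 transcript carries most of both. Exon 7 was included at 93.7%, 89.6% and 94.4% in TCR alone and at 91.1%, 92.9% and 91.3% in TCR+DMGV.

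Exon 5 was included at 15.2%, 14.5% and 21.9% in TCR alone and at 19.0%, 14.6% and 18.6% in TCR+DMGV (exact permutation p = 0.9, n = 3 each). The groups overlapped for this exon and for the other 3. On FPKM, exon 5 inclusion was 28.7% ± 5.21 and 29.1% ± 3.46 (SD, n = 3 each), over 1.5 times the value on counts. The difference between the scales comes with ENSMUST00000195533.5, a transcript of 702 bases that holds exon 5 without exons 4 and 6 and has 1544 to 1996 counts per library, which a scaling to length raises.

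The standard form of Cd44, ENSMUST00000099673.8, holds no variable exon. Its share was 61.9%, 75.8% and 73.2% in TCR alone and 90.8%, 57.2% and 66.8% in TCR+DMGV. The highest and the lowest library were both in TCR+DMGV (exact permutation p = 1, n = 3 each).

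The form with all 10 variable exons, ENSMUST00000005218.14, took 27.7%, 18.4% and 13.6% in TCR alone and 0.758%, 20.7% and 26.5% in TCR+DMGV. TCR+DMGV replicate 1 stood far below the other 5 libraries, with 40 counts where they had 794 to 1662 (exact permutation p = 0.8, n = 3 each). This form also ends in an exon of 3197 bases, against 1791 bases in the standard form, so that counts of its variable exons and of its longer end cannot be told apart.

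The form with the last variable exon alone, ENSMUST00000111192.2, took 2.63%, 2.61% and 2.20% in TCR alone and 2.71%, 14.5% and 3.06% in TCR+DMGV. TCR+DMGV replicate 2 stood far above the rest, and the shares did not overlap between groups (exact permutation p = 0.1, n = 3 each), while the other 2 libraries with the compound lay close to TCR alone. On FPKM shares the groups overlapped (exact permutation p = 0.3, n = 3 each). This transcript, whose mean share of 4.62% keeps it outside the 19 above, was counted 157, 172 and 128 times in TCR alone, against 143, 1116 and 192 times in TCR+DMGV, and those counts overlapped. The 7 transcripts with at least 1 variable exon together took, of all Cd44 counts, 31.0%, 22.7% and 24.3% in TCR alone and 5.02%, 35.8% and 30.1% in TCR+DMGV (exact permutation p = 0.9, n = 3 each). Inclusion overlapped between groups for each of the 10 variable exons, which are not 10 separate observations. Variable exons 1 to 4 had the same values in every library, since all their counts came from ENSMUST00000005218.14, and that transcript also holds the others.

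**Figure D3:**
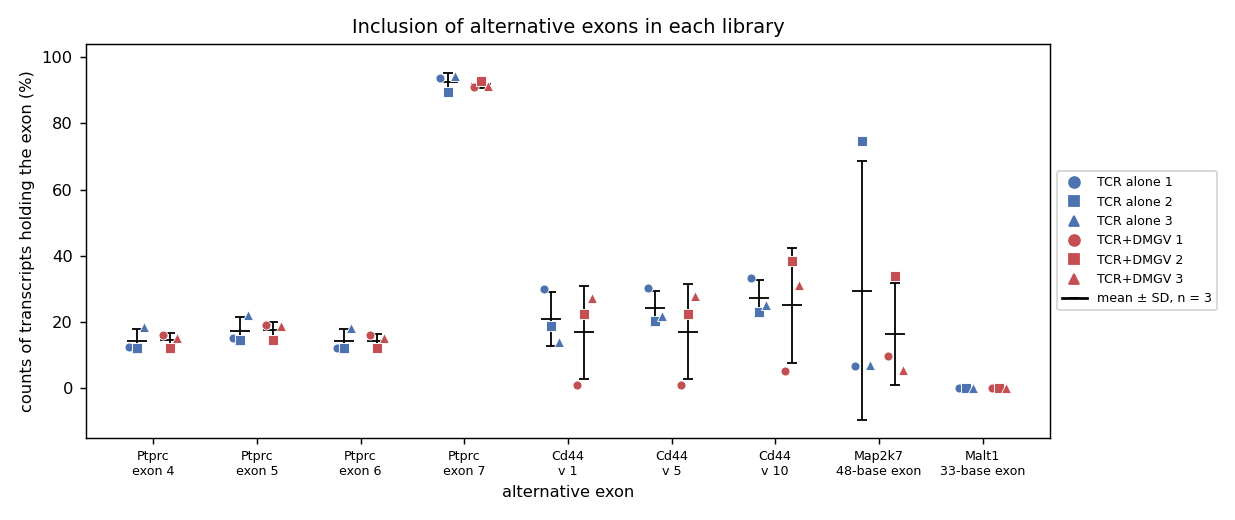
Inclusion (% of counts of transcripts that hold the exon among those that hold or skip it) of Ptprc exons 4 to 7, Cd44 variable exons 1, 5 and 10 (v), the 48-base exon of Map2k7 and the 33-base exon of Malt1, with a point per library and mean ± SD of each group. The groups overlap for every exon, and the transcript with the Malt1 exon is listed at 0 in all 6 libraries.

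Of the 19 alternative exons found in the 6 genes, 0 had groups that did not overlap, on counts or on FPKM. No share over all exons was taken beside this count, so it is not read as a result. The 19 are also not separate observations. Cd44 variable exons 1 to 4 had the same inclusion in every library, and the Malt1 exon was at 0 in all 6 libraries. An alternative exon was an internal exon of a protein-coding transcript that another protein-coding transcript of the gene skips.

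Hnrnpll, the regulator of CD45 splicing, did not pass the test at the gene level. Of its 5 larger transcripts, 3 had shares that did not overlap between groups, where 9.05% of transcripts of that size in all genes did not. Shares within a gene sum to the whole, so these 3 are not independent, and ENSMUST00000184578.7 among them overlapped on FPKM shares. The protein-coding ENSMUST00000184635.7 took 26.8%, 10.8% and 36.2% in TCR alone and 9.26%, 5.63% and 9.07% in TCR+DMGV. Every library with the compound lay below every library without it, and TCR alone replicate 2 lay nearest to them. The means were 24.6% ± 12.8 and 7.99% ± 2.05 (SD, n = 3 each, exact permutation p = 0.1). Its level had a log2 fold change of -1.58 with a standard error of 0.47, which did not pass the test (edgeR unadjusted p = 0.017, adjusted p = 1.00), and its usage did not pass either (adjusted p = 1.00).

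The transcript ENSMUST00000184297.7 is annotated for nonsense-mediated decay, the pathway that destroys RNAs with an early stop codon. It took 29.5%, 34.8% and 16.1% in TCR alone and 39.7%, 44.8% and 38.2% in TCR+DMGV. All 3 libraries with the compound lay above the 3 without it, with means of 26.8% ± 9.63 and 40.9% ± 3.47 (SD, n = 3 each, exact permutation p = 0.1). Its level had a log2 fold change of 0.65 with a standard error of 0.31, which did not pass the test (edgeR adjusted p = 1.00). Without TCR alone replicate 3 the difference of mean shares went from 14.2 to 8.80 percentage points and the log2 fold change of the level to 0.36, and for ENSMUST00000184635.7 the difference of mean shares went from -16.6 to -10.8 percentage points. Shares of a gene's transcripts sum to the whole, so a fall of ENSMUST00000184635.7 and a rise of ENSMUST00000184297.7 are not independent.

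ENSMUST00000184297.7 differs from both coding transcripts by a last exon of 704 bases against 1054 and by an extra exon of 83 bases (chr17:80044940-80045022, minus strand, GRCm38), which holds the stop codon. Its first exon has 571 bases, as in ENSMUST00000184635.7, against 678 in ENSMUST00000061331.13. Counts of its extra exon and of its shorter end cannot be told apart. The 83-base exon is shown from its first base to the stop codon, which is in capitals and starts at base 45, and the 36 bases after it are not shown.
Hnrnpll decay exon: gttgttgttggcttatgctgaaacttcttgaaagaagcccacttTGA

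The second coding transcript of Hnrnpll, ENSMUST00000061331.13, has a coding sequence of 1773 bases like ENSMUST00000184635.7, with a first exon of 678 bases against 571. It took 13.5%, 18.8% and 16.4% in TCR alone and 21.8%, 14.4% and 27.7% in TCR+DMGV, and the groups overlapped. Both coding transcripts together took 40.3%, 29.6% and 52.6% in TCR alone and 31.1%, 20.1% and 36.8% in TCR+DMGV, which overlapped as well.

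Of the 2 larger transcripts that retain an intron, ENSMUST00000184578.7 took 8.63%, 10.7% and 7.79% in TCR alone and 10.8%, 12.9% and 11.1% in TCR+DMGV. TCR alone replicate 2 lay just below the lowest library with the compound, and on FPKM shares the groups overlapped. ENSMUST00000184889.1 took 13.1% to 23.9% over the 6 libraries, with groups that overlapped. The gene as a whole did not pass the usage test (edgeR Simes adjusted p = 1.00), and limma's diffSplice gave it an adjusted p of 0.0913.

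**Figure D4:**
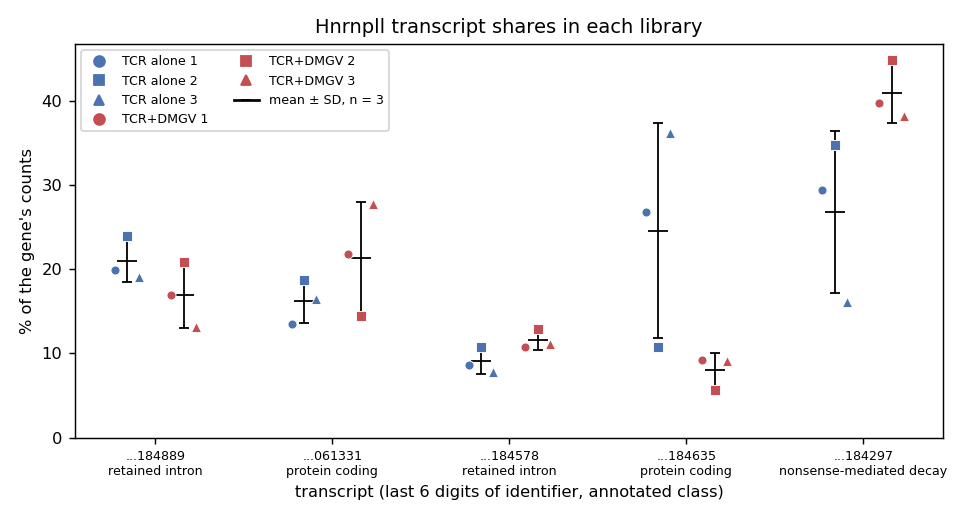
Shares of the Hnrnpll counts (%) of its 5 transcripts of at least 5%, with a point per library and the mean ± SD of each group (TCR alone in blue, TCR+DMGV in red). For ENSMUST00000184635.7 the red points lie at 5.63% to 9.26%, below all blue points, and for the decay transcript ENSMUST00000184297.7 they lie at 38.2% to 44.8%, above all blue points.

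Celf2 was the only 1 of the 6 genes to pass the usage test (edgeR Simes adjusted p = 0.0133), and the call rested on 1 library. ENSMUST00000100429.10 had 6804 counts in TCR alone replicate 1 and 5 to 19 counts in each of the other 5 libraries. In the same library ENSMUST00000114934.10 had 0 counts, where the other 5 had 5136 to 5300. The first of these took 82.8% of the gene's counts there and the second took 65.3% to 78.9% elsewhere.

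The fitted usage of ENSMUST00000100429.10 fell by 8.19 on the log2 scale (edgeR adjusted p = 0.00468), while without TCR alone replicate 1 it was -0.81 (adjusted p = 1.00) and the gene no longer passed (adjusted p = 1.00). ENSMUST00000100429.10 has 13 exons and a coding sequence of 1452 bases, with first and last exons of 199 and 5971 bases. ENSMUST00000114934.10 has 14 exons and a coding sequence of 1578 bases, with first and last exons of 145 and 3807 bases. The remaining larger transcript, ENSMUST00000182879.7, took 5.32%, 23.4% and 5.50% in TCR alone and 19.8%, 21.7% and 18.4% in TCR+DMGV, and the groups overlapped. Of 7783 genes with a transcript of at least 5% in the usage test, 276 (3.55%) had a library standing over 50 percentage points from the nearest other in some transcript's share, a limit set after the Celf2 values were seen. Each of the 6 libraries was the one apart for 36 to 82 transcripts.

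In Map2k7 the form that skips the 48-base exon, ENSMUST00000110998.8, was counted 351, 319 and 599 times in TCR alone, against 403, 388 and 449 times in TCR+DMGV. Those counts overlapped. The exon is held by 2 transcripts. ENSMUST00000062686.10 was counted 25, 1017 and 35 times in TCR alone, against 46, 182 and 26 times in TCR+DMGV. Replicate 2 was its highest library in each group. ENSMUST00000003027.13 was counted 0, 0 and 25 times in TCR alone, against 10, 246 and 0 times in TCR+DMGV. Inclusion of the exon was 6.61%, 74.6% and 7.08% in TCR alone and 9.61%, 33.8% and 5.45% in TCR+DMGV (exact permutation p = 0.8, n = 3 each), and 4 of the 6 libraries lay under 10%.

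ENSMUST00000110999.7, which skips the exon and has another end, was listed at 0 in 3 libraries and took up to 32.6% in TCR+DMGV replicate 2. ENSMUST00000129537.1, which retains an intron, took 25.9% in TCR alone replicate 1 and 27.0% in TCR+DMGV replicate 1 and 2.17% to 5.72% in the other 4. Neither separated the groups.

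**Figure D5:**
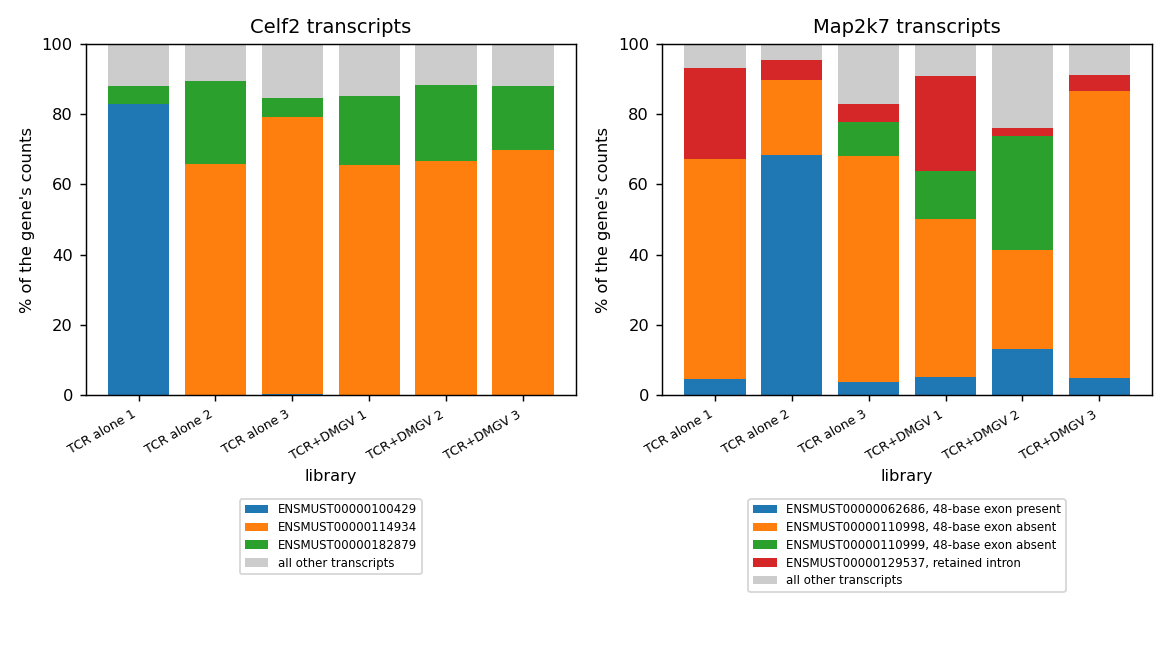
Stacked shares of each gene's counts (%) for Celf2 (left) and Map2k7 (right) in the 6 libraries, by transcript. TCR alone replicate 1 carries ENSMUST00000100429 at 82.8% of Celf2 in place of ENSMUST00000114934. TCR alone replicate 2 carries ENSMUST00000062686, a Map2k7 form with the 48-base exon, at 68.4%.

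In Malt1 the transcript without the 33-base exon, ENSMUST00000049248.5, took 87.3%, 91.6% and 83.04% in TCR alone and 80.6%, 95.6% and 86.1% in TCR+DMGV. The groups overlapped, with means of 87.3% ± 4.26 and 87.4% ± 7.57 (SD, n = 3 each, exact permutation p = 1). The transcript that holds the exon, ENSMUST00000224056.1, was listed at 0 in all 6 libraries. This is an assignment of shared reads to isoforms and sets no limit on inclusion of so short an exon. ENSMUST00000225085.1, which retains an intron, took 6.66%, 4.75% and 12.1% in TCR alone and 15.9%, 1.58% and 9.63% in TCR+DMGV, and both libraries apart on the first component had the highest share of their group.

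Among regulators of splicing tied to lymphocyte activation, 33 of 35 listed genes were tested and 0 passed in either direction, with a median log2 fold change of -0.00, beside 0.00 over all genes tested. Hnrnpl, the paralog of Hnrnpll, had a log2 fold change of 0.06 (standard error 0.08), Sfpq, which binds CD45 RNA after activation, had 0.14 (standard error 0.08), and Ptbp1, a repressor of exons, had 0.01 (standard error 0.07). Thrap3 had -0.05 (standard error 0.08), Celf1, the paralog of Celf2, had -0.11 (standard error 0.14), and Gsk3b, a kinase that acts on Sfpq, had -0.15 (standard error 0.13).

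Among 25 other genes spliced on T cell activation, all tested, 0 passed and the median was 0.05. Fyn, a Src-family kinase, had 0.05 (standard error 0.08), Traf3, an adaptor of NF-kappaB signalling, had 0.07 (standard error 0.11), and Lef1, a transcription factor, had 0.08 (standard error 0.09). Ezh2, a histone methyltransferase named after its value was seen, had -0.17 (edgeR adjusted p = 0.999). It was the 1 gene of 82 tested across these lists with an unadjusted edgeR p under 0.05, where 471 of all 14786 genes tested had one. None of the 30 regulators, 24 other spliced genes and 18 signalling partners in the usage test passed it.

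Among 24 signalling partners, all tested, 0 passed and the median was 0.01. Lck and Csk, the kinases that act with CD45 on TCR signalling, had 0.02 (standard error 0.08) and -0.13 (standard error 0.14). Bcl10, which binds MALT1, had 0.01 (standard error 0.10). Map2k4 and Mapk9, which act beside and below MKK7 in the JNK pathway, had 0.02 (standard error 0.09) and 0.05 (standard error 0.12).

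The genes most alike in pattern to each of the 6 were found by Pearson's r of log2 CPM over the 6 libraries among 5620 others with a mean log2 CPM above 5. Ptprc was most like Clip1, Sltm and Usp8 (r from 0.952 to 0.979), Cd44 was most like Klhl6, Tmem33 and Minpp1 (0.964 to 0.981), and Hnrnpll was most like Ppt1, Gstcd and Atxn7l3b (0.953 to 0.984). Celf2 was most like Atad2b, Tram1 and Spty2d1 (0.987 to 0.999), Map2k7 was most like Pex2, Gm43126 and Nedd4 (0.954 to 0.973), and Malt1 was most like Ecpas, Atp11b and Virma (0.995 to 0.997). These values are the highest of 5620, over only 6 points that share library and depth. How many genes had r above 0.9 varied widely: 605 with Malt1, 137 with Celf2, 49 with Cd44, 27 with Ptprc, 18 with Map2k7 and 9 with Hnrnpll.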

How the data were processed

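RNA of 3 TCR alone and 3 TCR+DMGV samples was analysed, and groups were taken from the sample labels. The authors filtered reads with SOAPnuke, mapped them with HISAT2 2.0.4 (named by the submitters' processing notes, with build mm9) and calculated expression with StringTie. The deposited counts are whole numbers per gene and transcript, not normalized, and the step that made them from StringTie's output is not given in the sources used here. Their sums per library exceed the stated number of reads, the cause of which was not tested, so limits and tests that take counts as reads may be too narrow. The deposited FPKM values are scaled by the authors to length and to each sample's total. Strand use is not given in the sources used here. Transcript counts are estimates of how reads shared by isoforms are split, so a share can move without a change in RNA.

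Identifiers without version matched GENCODE M21 (GRCm38) for 99.7% of genes and 99.6% of transcripts, and coordinates and exon structures come from it. Gene counts equalled the sum of their transcripts for 99.7% of genes compared. The 6 members and the gene lists were chosen with earlier results of these data known.

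Genes and transcripts were tested by the quasi-likelihood method of edgeR 4.0.16, run in R 4.3.3 (TMM, default filter on low counts, Benjamini-Hochberg adjustment over all features, threshold 0.05). Standard errors were obtained from the log2 fold change and the F statistic. Usage was tested with edgeR's diffSpliceDGE (Simes per gene). Scripts were tested on simulated data, in which transcript-level calls were rarely recovered at the fitted dispersion and most usage calls fell on unchanged genes, so single usage calls carry little weight. Shares and exon inclusion were compared by exact two-sided permutation, unadjusted, over 19 transcripts and 19 exons. On how the replicates of a group were obtained, the files and labels say only that they are biological replicates.

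Named were all 6 members, each member transcript with a mean share of at least 5%, 15 list genes (1 of which is not reported here), any other list gene past the threshold, and 3 genes per member of like pattern (log2 CPM, prior count 2). Alternatives were DESeq2 1.42.0, limma 3.58.1, other size factors and filters, FPKM with pseudocounts of 1 and 0.1, a replicate block, and each library left out. Leaving out both libraries apart on the first component was chosen after seeing the data.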

Additional observations from a re-analysis of the deposited data

How the results depend on the processing

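None of the 6 genes passed the test of gene level and none of their transcripts passed the test of transcript level under any alternative run. The count of genes called over the whole table was 14 with DESeq2, 1 with every gene that had a count, 0 with limma on either FPKM scale and 0 to 5 with 1 library left out. For transcripts it was 387 with DESeq2, 3 with limma on FPKM and 0 to 1 with 1 library left out. Genes called for usage numbered 176 with at least 10 counts summed, 44 with transcripts of at least 5% alone and 151 to 171 with 1 library left out, and called transcripts numbered 278, 47 and 183 to 213. Without both libraries apart on the first component, 12 genes passed for level, 220 genes and 264 transcripts passed for usage, 5 member transcripts and 1 member exon had groups that did not overlap, and Cd44 turned to 0.081. With 1 library left out, 3 to 7 transcripts and 0 to 2 exons did not overlap, and fewer libraries overlap less by construction. No share over all features was taken with libraries left out, nor for exons in any setting. These counts of members therefore have no background and are not read as a result.

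The log2 fold changes that turned direction with 1 library left out ranged from -0.049 to 0.126 for Ptprc, from -0.15 to 0.13 for Cd44, from -0.132 to 0.057 for Celf2 and from -0.53 to 0.24 for Map2k7. Malt1 kept its direction, from -0.30 without TCR alone replicate 3 to -0.03 without TCR+DMGV replicate 1, as did Hnrnpll, from 0.02 to 0.06. The gene-level call of Celf2 usage held with at least 10 counts summed and without TCR alone replicate 2 or 3, and was lost under each other alternative run. Same-numbered libraries deviated together at correlations of -0.15 to 0.12, and not every library correlated best with its own number, so the numbers were not taken to pair the libraries. With the replicate block 0 genes passed for level, 0 transcripts passed for level, 41 genes and 49 transcripts passed for usage, and none of the 6 genes passed. The depth of Map2k7 and the split of reads among isoforms limit what the shares can show.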
